A study of Rattus norvegicus with 6 samples.

Results

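The 8 genes described here were grouped under transport or sensing of short-chain fatty acids and other monocarboxylates, or formation of ketone bodies. They are the transporters Slc16a1, Slc16a3, Slc16a12 and Slc5a8, the transporter chaperone Bsg, the mitochondrial enzymes Acat1 and Bdh1, and the receptor Ffar2. Of the transporters, Slc16a3 is best known for exporting lactate, and Slc16a12 is known as a creatine carrier rather than a fatty acid carrier. The 8 genes were selected by symbol, with earlier results of these data known. All 8 were found, as 9 of the 13647 RefSeq transcripts of the expression table. After summing per gene they were 8 of the 13104 genes and unmatched transcripts. RNA was taken from the inner epithelial layer of colons from 6 adult Wistar rats, all male. All 6 rats had undergone ablation of the pineal gland. The melatonin group, animals 4, 5 and 6, received a single intraperitoneal dose of 1 mg/kg, and the vehicle group, animals 1, 2 and 3, received 2.5% ethanol in PBS. Injections were given as subjective night began, and tissue was taken 4 h later. The p-values set differences between the groups against the variation between these animals. Intact rats, other doses and other times were not analysed here.

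Bacteria in the colon ferment fibre to acetate, propionate and butyrate, and colonocytes burn butyrate as a main fuel. Butyrate enters across the luminal membrane by sodium-coupled transport (Slc5a8) and by proton-coupled transport (Slc16a1), and the proton-coupled carriers need the membrane glycoprotein basigin (Bsg) to reach the cell surface. Inside mitochondria, beta-oxidation yields acetyl-CoA and acetoacetyl-CoA, from which ketone bodies are formed, and Bdh1 interconverts acetoacetate and beta-hydroxybutyrate. Acat1 joins or splits acetoacetyl-CoA and therefore serves both formation and use of ketone bodies.

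The promoters of 4 of the genes are shown because these genes mark the ends of what follows: Bsg and Slc16a1 had the highest levels of the 8, and Ffar2 and Slc16a12 had the lowest levels and were the 2 whose groups did not overlap. Each line gives the 250 bases before the annotated start, 5′ to 3′ on the strand of the gene, from RefSeq (build GRCr8, which is not the build of the expression table), and promoters were matched for 8 of 8 genes. Capitals mark matches, on either strand, to the E-box CACGTG, the GC box GGGCGG, the CCAAT box CCAAT, the TATA box TATAAA, the cAMP response core TGACG and the D-box TTATGTAA. The E-box and the cAMP response core can share bases.
Slc16a1 (chr2:194812410-194812659, + strand): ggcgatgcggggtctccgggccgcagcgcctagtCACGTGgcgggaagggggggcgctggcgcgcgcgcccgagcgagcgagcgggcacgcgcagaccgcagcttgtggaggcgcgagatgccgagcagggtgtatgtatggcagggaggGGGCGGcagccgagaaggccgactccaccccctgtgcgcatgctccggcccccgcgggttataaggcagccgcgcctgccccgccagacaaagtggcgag
Bsg (chr7:10651006-10651255, - strand): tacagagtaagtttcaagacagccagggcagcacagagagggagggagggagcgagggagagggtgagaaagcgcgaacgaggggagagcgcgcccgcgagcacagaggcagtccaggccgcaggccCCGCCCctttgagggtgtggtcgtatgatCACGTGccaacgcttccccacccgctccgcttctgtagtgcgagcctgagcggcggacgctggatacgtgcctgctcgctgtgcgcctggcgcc
Ffar2 (chr1:95202060-95202309, - strand): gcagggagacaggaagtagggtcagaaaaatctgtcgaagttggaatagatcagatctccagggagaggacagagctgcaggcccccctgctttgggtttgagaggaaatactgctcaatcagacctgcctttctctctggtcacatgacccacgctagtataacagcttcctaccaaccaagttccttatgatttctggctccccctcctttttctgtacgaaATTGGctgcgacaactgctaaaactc
Slc16a12 (chr1:241621717-241621966, - strand): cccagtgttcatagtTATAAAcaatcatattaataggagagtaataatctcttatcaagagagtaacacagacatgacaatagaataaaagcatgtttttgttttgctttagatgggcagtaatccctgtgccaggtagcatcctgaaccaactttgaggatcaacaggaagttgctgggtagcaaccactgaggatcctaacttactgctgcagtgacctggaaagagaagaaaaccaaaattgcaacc

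Slc16a1 and Bsg, the transporter and its chaperone, each held 1 E-box and 1 GC box. Of all 33469 RefSeq promoters of the same length, 5.59% held an E-box and 30.5% a GC box. A CCAAT box was present in Ffar2 and Acat1 and in 34% of all promoters, and the letters TATAAA, at base -235 from the start, in Slc16a12 and anywhere in the window in 12.9% of all promoters. Bdh1 and Acat1 also held a GC box. No cAMP response core or D-box was found in the 8 windows, and they were in 18.2% and 0.828% of all promoters. The windows of the 4 printed promoters ranged from 74.0% G and C in Slc16a1 to 39.6% in Slc16a12, against a median of 51.2% over all promoters. These matches describe the letters and say nothing about which factors bind there.

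Depth was estimated from the steps between low values at 3290000 to 3620000 mapped fragments per library, and RNA integrity numbers lay between 9.0 and 9.7. Melatonin animal 6 stood apart in that it had the lowest value of the 6 animals for 33.3% of the 10137 features tested, where the other animals had it for 10.6% to 14.5%. Markers of surface colonocytes summed to 10095 to 12014 FPKM (fragments per kilobase of transcript, scaled to library size) in each animal, and those of goblet cells to 7811 to 10092. Markers of smooth muscle summed to 47.1 to 70.4 FPKM, mostly Mylk, those of endothelium to 18.7 to 26.5 and those of fibroblasts to 1.6 to 4.5. The smooth muscle actin Acta2 was at 0 in the vehicle animals and at most 0.21 FPKM after melatonin. Col3a1 of fibroblasts and Cdh5 of endothelium stayed at or below 0.34 FPKM. Other markers of these lists were higher, with Des at 3.00 to 7.02 FPKM, Col1a2 at 1.20 to 3.09 and Esam at 15.61 to 21.64. Esam took most of the endothelial sum. With a row and a mean of at least 1 FPKM were 4 of 7 smooth muscle, 1 of 7 fibroblast and 2 of 6 endothelial markers. In such bulk samples, fewer cells of a type and less RNA per cell cannot be told apart.

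**Figure D1:**
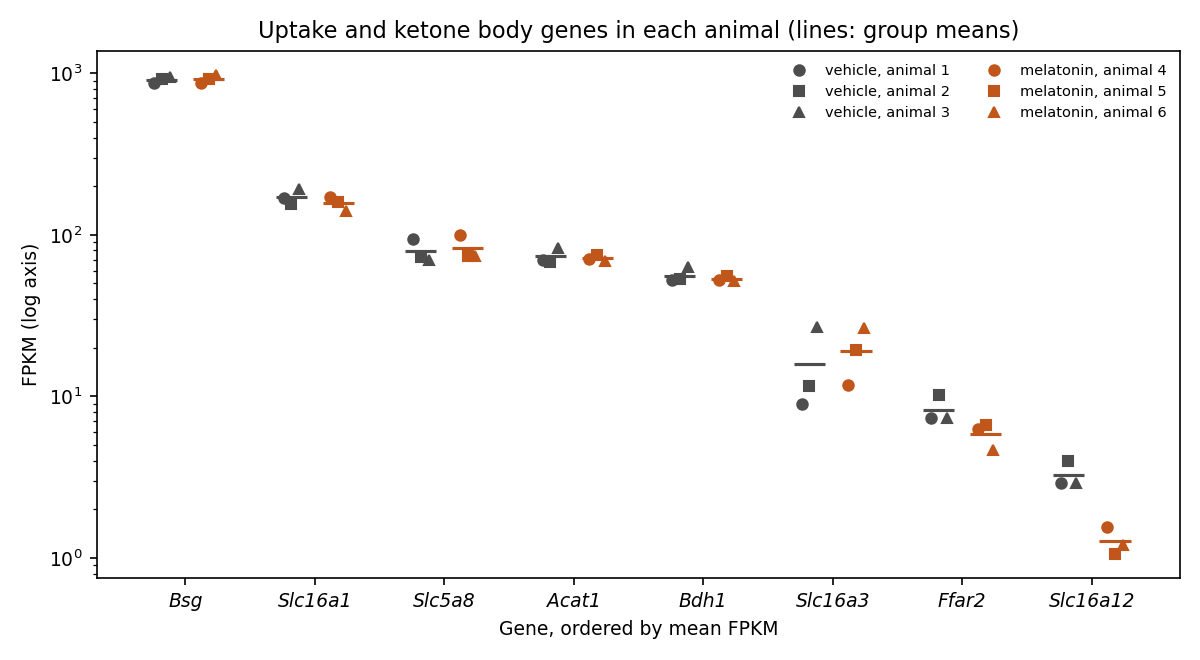
FPKM on a log axis (y) of the 8 genes (x, ordered by mean) in each of the 6 animals, with vehicle in grey, melatonin in orange and group means as lines. Bsg lies near 900 FPKM in every animal, and Slc16a12 lies between 2.89 and 3.98 in vehicle animals and between 1.06 and 1.56 in melatonin animals.

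The 8 genes spanned a wide range of levels, and their order was much the same in each rat. FPKM is scaled by transcript length, so levels can be compared between genes. Bsg was the most abundant, at 868 to 979 FPKM, and lay 4.94 to 7.02 times above Slc16a1, which came next at 140 to 191 FPKM. Slc16a1 in turn lay 1.72 to 2.72 times above Slc5a8. Slc5a8 and Acat1 could not be ordered: Slc5a8 was higher in 4 of 6 animals and their ranges overlapped. Acat1 was higher than Bdh1 in 6 of 6 animals, and Bdh1 was higher than Slc16a3 in 6 of 6. Slc16a3 lay above Ffar2 in each animal too, but by 1.14 to 5.67 times, and their ranges across animals overlapped. Slc16a12 was the least abundant and lay below Ffar2 in 6 of 6 animals.

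The comparison of melatonin with vehicle asks whether a single dose changes transcript levels in the epithelium within hours. None of the 8 genes passed the threshold. All 8 passed the filter of a mean of at least 1 FPKM, and with limma on log2(FPKM + 1) and Benjamini-Hochberg adjustment over the 10137 features tested, 0 of 8 had an adjusted p under 0.05, where 0% of all features were called higher and 0% lower. With no adjustment, 1 of the 8 had a p under 0.05, Slc16a12, which was lower after melatonin. At that level 3.75% of all features passed, 1.82% higher and 1.92% lower. DESeq2 and edgeR were not run, since the table holds no counts. The median log2 difference over the 8 genes was -0.045, with 3 positive and 5 negative. Over all features it was -0.018, with 54% negative. Each melatonin animal lay below each vehicle animal for 2 of the 8 genes, Slc16a12 and Ffar2, where this held for 4.33% of all features. The reverse order held for 0 of the 8 and for 4.04% of all features, which makes 8.38% of features without overlap in either direction. These 8 genes were chosen with earlier results of these data known, including those of Slc16a12, so the counts above are no added evidence. With 3 animals against 3, an exact two-sided permutation test of a single gene cannot go below p = 0.1.

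**Figure D2:**
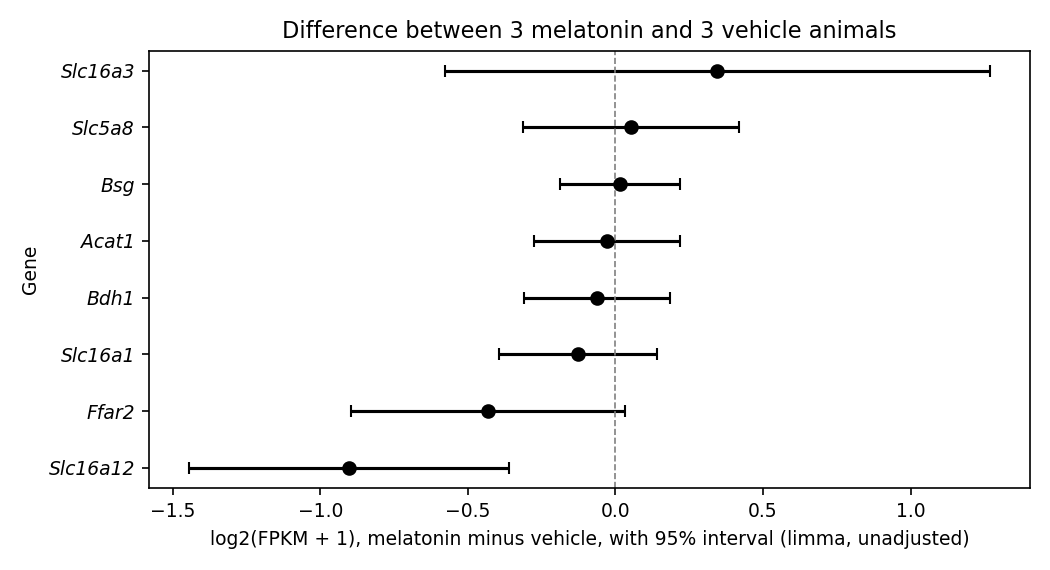
Difference in log2(FPKM + 1), melatonin minus vehicle (x), for each of the 8 genes (y), with the 95% interval from limma, not adjusted for the number of features. The interval of Slc16a12 runs from -1.44 to -0.36 and those of the other 7 genes include 0.

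Slc16a1 encodes MCT1, the main proton-coupled carrier of butyrate and lactate in the colon. It was listed at 168.61, 154.05 and 190.82 FPKM in vehicle animals 1, 2 and 3 and at 170.99, 159.05 and 139.55 in melatonin animals 4, 5 and 6. Vehicle animal 3 was the highest and melatonin animal 6 the lowest, and the other 4 animals were interleaved. The means were 171 ± 18.5 and 157 ± 15.9 FPKM (SD, n = 3 each). The log2 difference of -0.13 ± 0.12 (SE) had a 95% interval of -0.40 to 0.14, which corresponds to 0.761 to 1.10 times the vehicle level on the FPKM + 1 scale (limma adjusted p = 0.972).

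Slc5a8 encodes SMCT1, the sodium-coupled carrier of butyrate and other monocarboxylates on the luminal side. Vehicle animals stood at 94.64, 73.01 and 70.24 FPKM and melatonin animals at 99.32, 73.52 and 74.31. One animal of each group, vehicle 1 and melatonin 4, lay well above the other 4, which fell between 70.2 and 74.3. The means were 79.3 ± 13.4 and 82.4 ± 14.7 FPKM (SD, n = 3 each), and the log2 difference was 0.05 ± 0.16 with a 95% interval of -0.31 to 0.42 (limma adjusted p = 0.982). The 2 butyrate carriers did not vary together: the ratio of Slc16a1 to Slc5a8 was 1.78, 2.11 and 2.72 after vehicle and 1.72, 2.16 and 1.88 after melatonin.

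Slc16a3 encodes MCT4, a carrier best known for exporting lactate from glycolytic cells, and it was the most variable of the 8. It stood at 8.99, 11.57 and 26.86 FPKM with vehicle and at 11.83, 19.38 and 26.40 after melatonin. Vehicle animal 3 and melatonin animal 6 were both near the top, vehicle animal 1 was the lowest, and the groups overlapped over most of their range. The coefficient of variation was 61.1% after vehicle and 37.9% after melatonin, against at most 20.1% in any group for the other 7 genes. The log2 difference of 0.34 ± 0.40 had a 95% interval of -0.58 to 1.27 (limma adjusted p = 0.974), or 0.670 to 2.41 times the vehicle level on the FPKM + 1 scale. Its size rested on single animals, at 0.78 without vehicle animal 3, 0.64 without melatonin animal 4, 0.21 without vehicle animal 2, 0.09 without melatonin animal 6 and 0.04 without vehicle animal 1. The lactate dehydrogenase gene Ldha, whose product makes the lactate that MCT4 carries, was listed at 431.33, 364.67 and 448.41 after vehicle and 366.57, 519.58 and 627.87 after melatonin. Melatonin animals 5 and 6 were above every vehicle animal for Ldha and not for Slc16a3.

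Slc16a12 encodes MCT12, a family member known as a creatine carrier rather than a fatty acid carrier. It was listed at 2.89, 3.98 and 2.92 FPKM in the vehicle animals and at 1.56, 1.06 and 1.21 in the melatonin animals. Each melatonin animal was below each vehicle animal, with a gap between 1.56 and 2.89 FPKM. These levels rest on few reads: 1 read is worth about 0.155 FPKM, and the values correspond to an estimated 19.0, 24.1 and 18.9 reads after vehicle and 10, 7.0 and 8.1 after melatonin. The means were 3.26 ± 0.621 and 1.28 ± 0.257 FPKM (SD, n = 3 each), and the melatonin mean was 0.391 times the vehicle mean. The log2 difference was -0.90 ± 0.24 with a 95% interval of -1.44 to -0.36 (limma adjusted p = 0.972), and the exact two-sided permutation test gave p = 0.1, the smallest it can give. Its size depends on the constant added before taking logs, at -1.29 with 0.1 and -0.40 with 5, while the authors' deposited table gives -1.35 for the log2 ratio of the means. Without melatonin animal 6 the log2 difference was -0.88. This gene was already known from earlier results of these data when the 8 were put together, so its place among them is no added evidence.

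**Figure D3:**
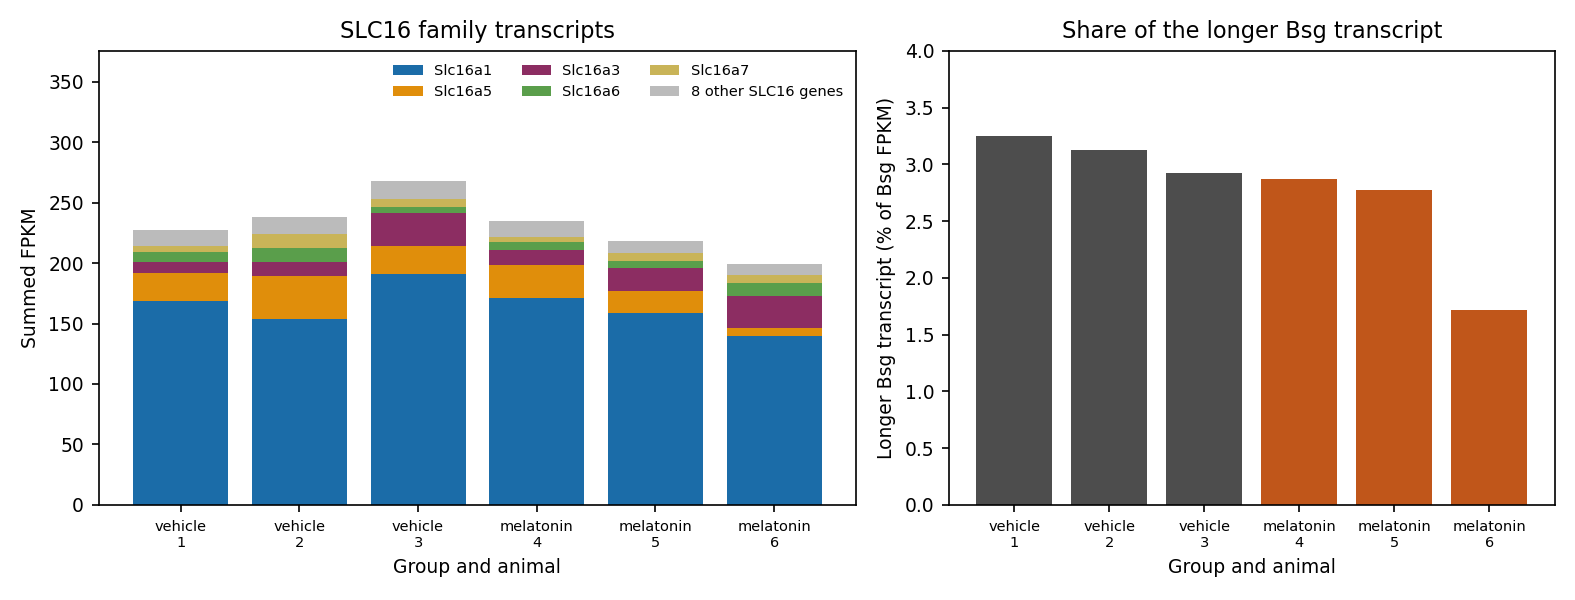
Left, summed FPKM (y) of the 13 SLC16 genes in each animal (x), with 5 genes shown apart and the other 8 pooled. Right, the longer Bsg transcript as a percentage of all Bsg FPKM (y) in each animal (x), vehicle in grey and melatonin in orange, where the bars run from 3.25% in vehicle animal 1 to 1.72% in melatonin animal 6.

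Across the whole SLC16 family, Slc16a1 supplied most of the transcripts. It made up 74.1%, 64.7% and 71.1% of the summed FPKM of the 13 SLC16 genes with a row after vehicle, and 72.8%, 73.0% and 70.2% after melatonin. The family sum was 227, 238 and 268 FPKM after vehicle and 235, 218 and 199 after melatonin, so that melatonin animals 5 and 6 lay below the vehicle animals and animal 4 did not (exact two-sided permutation p = 0.2). Slc16a5, another carrier of the family, stood at 23.02, 35.22 and 23.38 FPKM after vehicle and 27.78, 17.65 and 7.02 after melatonin (log2 difference -0.77 ± 0.42, limma adjusted p = 0.972). Melatonin animal 6 was by far the lowest for it and animal 4 lay among the vehicle animals. Slc16a7, or MCT2, was listed at 4.96, 11.53 and 6.46 FPKM with vehicle and at 4.28, 6.24 and 6.90 after melatonin. Slc16a8 was at 0 in 4 of the 6 animals and at most 0.48 FPKM. Of the 16 SLC16 and SLC5 carriers listed, 14 had a row and 12 were tested, 4 of them among the 8 genes. None of the 12 passed, and their median log2 difference was -0.167. Of the 12, 3 were positive and 9 negative, where 54% of all features were negative.

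Bsg is the chaperone that carries MCT1 and MCT4 to the membrane. It was listed at 873.14, 918.17 and 942.61 FPKM after vehicle and 868.10, 919.82 and 979.39 after melatonin. The groups covered nearly the same range, with means of 911 ± 35.2 and 922 ± 55.7 FPKM (SD, n = 3 each). The log2 difference was 0.02 ± 0.09 with a 95% interval of -0.19 to 0.22 (limma adjusted p = 0.990), the narrowest of the 8. Bsg exceeded Slc16a1 by 5.18, 5.96 and 4.94 times after vehicle and by 5.08, 5.78 and 7.02 times after melatonin.

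2 Bsg transcripts had rows of their own. The shorter one, which encodes basigin isoform 2, carried nearly all of the signal, and the longer one, which encodes isoform 1, stood at 28.36, 28.78 and 27.56 FPKM with vehicle and at 24.95, 25.50 and 16.83 after melatonin. As a share of Bsg it was 3.25%, 3.13% and 2.92% after vehicle and 2.87%, 2.77% and 1.72% after melatonin. The groups did not overlap, but vehicle animal 3 and melatonin animal 4 were close (exact two-sided permutation p = 0.1, the smallest possible). This share was examined after the values had been seen, and how reads common to both transcripts were divided is not given in the sources used here. Of the other partners of these carriers, Nptn stood at 106 ± 14.3 and 112 ± 5.02 FPKM, and Emb, the alternative chaperone, was at or below 0.79 FPKM in every animal.

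Acat1, mitochondrial acetoacetyl-CoA thiolase, stood at 69.40, 68.05 and 82.90 FPKM with vehicle and at 70.61, 75.33 and 69.29 after melatonin. Bdh1, beta-hydroxybutyrate dehydrogenase, stood at 52.20, 53.03 and 62.77 with vehicle and at 52.46, 55.89 and 51.95 after melatonin. Vehicle animal 3 was the highest and melatonin animal 5 the second highest for both enzymes. The log2 differences were -0.03 ± 0.11 for Acat1, with a 95% interval of -0.28 to 0.22, and -0.06 ± 0.11 for Bdh1, with an interval of -0.31 to 0.19 (limma adjusted p = 0.984 and 0.976). The ratio of Bdh1 to Acat1 varied little, at 0.752, 0.779 and 0.757 after vehicle and 0.743, 0.742 and 0.750 after melatonin. The groups did not overlap, by a margin of the last digits (exact two-sided permutation p = 0.1), and the ratio was chosen after the values had been seen.

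None of the other genes of ketone body metabolism passed the threshold. Oxct1, the enzyme that commits ketone bodies to use, stood at 39.82, 40.57 and 54.13 FPKM after vehicle and 44.12, 45.06 and 35.28 after melatonin, with means of 44.8 ± 8.05 and 41.5 ± 5.40 (SD, n = 3 each). Vehicle animal 3 was the highest for it, as for Acat1 and Bdh1, and melatonin animal 6 the lowest, and the groups overlapped. Of the 12 genes listed, 10 had a row and were tested, including Acat1 and Bdh1. Of these, 4 were positive and 6 negative, where 54% of all features were negative, and the median log2 difference was -0.045.

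Ffar2, also known as Gpr43, encodes a receptor for acetate and propionate that is found on enteroendocrine and immune cells. It was listed at 7.30, 10.19 and 7.38 FPKM with vehicle and at 6.29, 6.69 and 4.66 after melatonin. Each melatonin animal lay below each vehicle animal, with melatonin animal 5 and vehicle animal 1 closest, at an estimated 23.0 and 24.9 reads. The means were 8.29 ± 1.65 and 5.88 ± 1.08 FPKM (SD, n = 3 each). The log2 difference of -0.43 ± 0.20 had a 95% interval of -0.90 to 0.03 (limma adjusted p = 0.972), and the exact two-sided permutation test gave p = 0.1. It was -0.29 without vehicle animal 2 and -0.30 without melatonin animal 6, the highest and the lowest animal, and -0.29 with 5 added before taking logs.

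Markers of the cells that carry Ffar2 are given beside it. Over the 7 enteroendocrine markers with a row, the sum was 159 to 209 FPKM after vehicle and 178 to 210 after melatonin. Positive were 5 of the 7 tested markers and 46% of all features. Gcg, the proglucagon gene, stood at 34.0 ± 1.88 and 40.8 ± 5.62 FPKM, and Pyy at 91.1 ± 22.8 and 94.0 ± 14.0. Neutrophil and monocyte markers summed to 102 to 169 FPKM after vehicle and 112 to 145 after melatonin, over the 6 of 8 that had a row, and Cd14 alone took most of this. The receptor genes that define neutrophils were near 0, with Csf3r at most 0.36 and Cxcr2 at most 0.22 FPKM. Other markers of this list reached higher values, with S100a8 at 0.00 to 4.46 FPKM, S100a9 at 0.62 to 11.59 and Lyz2 at 2.61 to 15.31. Neither of these sums separated the groups. Markers of T, B and NK cells did, at 5.2 to 13.6 FPKM after vehicle and 16.0 to 19.4 after melatonin over the 8 of 9 with a row, with Cd3e higher in each melatonin animal, so they stood in the opposite order to Ffar2. Markers of macrophages and dendritic cells summed to 14.3 to 19.7 FPKM after vehicle and 9.5 to 20.2 after melatonin, over the 5 of 8 with a row, and overlapped. Markers of red blood cells differed in the same direction as Ffar2 and Slc16a12. Over the 5 of 6 with a row they summed to 127.7 to 170.7 FPKM after vehicle and 77.4 to 132.9 after melatonin, which overlapped. Among the 4 tested red blood cell markers, 0 were positive, against 46% of all features, and the median log2 difference was -0.422. Of these, Hbb-b1, a beta-globin gene, was listed at 3.86, 3.24 and 5.69 FPKM after vehicle and 2.63, 1.34 and 1.24 after melatonin, without overlap (limma adjusted p = 0.972). The part of any of these cells in the values of Ffar2 or Slc16a12 was not tested. Other receptors of the kind were mostly scarce: Ffar3, which binds propionate and butyrate, lay between 0 and 2.36 FPKM, and the rat olfactory-type receptor Olr59 at or below 0.85. Ffar4, a receptor for long-chain fatty acids, stood at 41.13, 33.14 and 36.56 FPKM after vehicle and 29.87, 30.26 and 61.29 after melatonin, with melatonin animal 6 far above the rest.

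**Figure D4:**
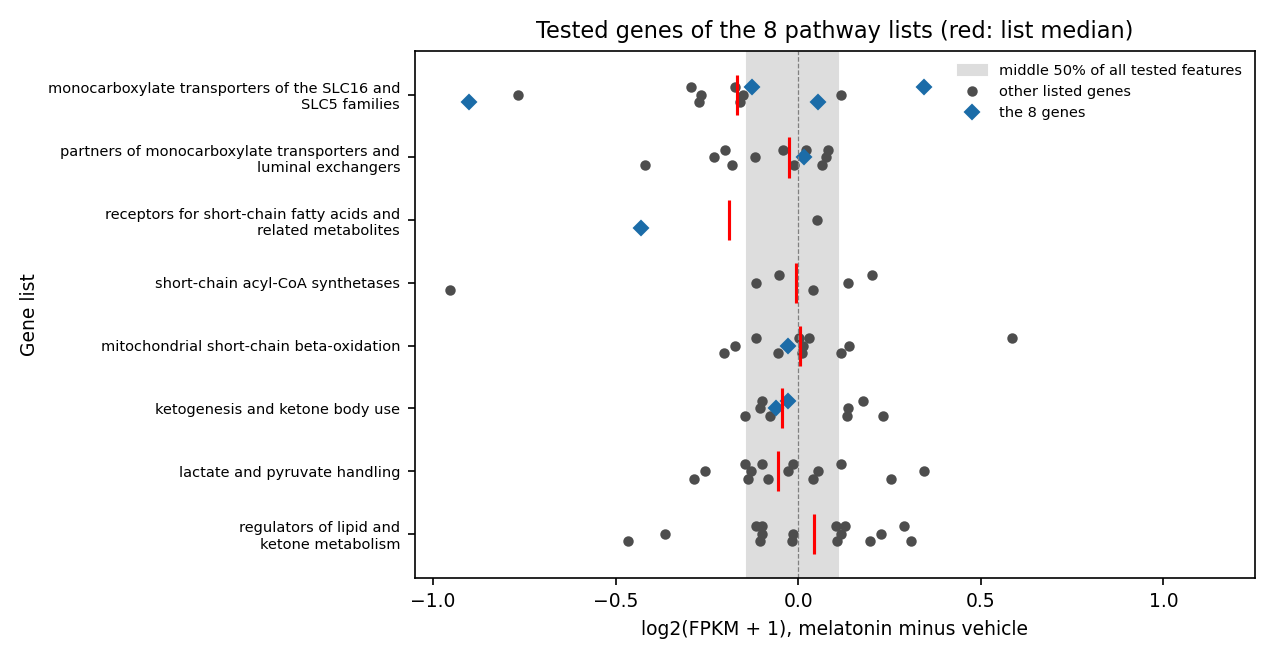
Difference in log2(FPKM + 1), melatonin minus vehicle (x), for each tested gene of 8 pathway lists (y), with the 8 genes as blue diamonds, list medians in red and the quartiles of all tested features in grey (-0.14 to 0.11). Slc16a12, Acsm3, Slc16a5 and Acaa2 lie farthest from 0.

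Around the 8 genes, 102 further genes of the same pathways were listed, of which 85 had a row and 74 were tested. None passed at an adjusted p under 0.05 in limma. With no adjustment 1 of the 74, Acaa2, was higher at that level, against 1.82% of all features, and 1, Foxa2, was lower, against 1.92%, so these counts were no larger than in the whole table. The groups did not overlap for 3 of them: Acaa2 above (1.35% against 4.04% of all features) and Echs1 and Foxa2 below (2.7% against 4.33%). Their median log2 difference was -0.035.

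In the beta-oxidation of short chains, 12 of 12 genes were tested, 0 passed, and the median log2 difference was 0.005. Acaa2, the mitochondrial thiolase that acts beside Acat1 on longer substrates, stood at 81.73, 81.06 and 89.40 FPKM after vehicle and 118.16, 127.98 and 133.95 after melatonin (log2 difference 0.59 ± 0.09, limma adjusted p = 0.480). Echs1, the short-chain enoyl-CoA hydratase, stood at 53.7 ± 6.76 and 46.2 ± 0.601 FPKM. Acads, which takes the first oxidation step of butyryl-CoA, stood at 149 ± 10.1 and 139 ± 20.6. Of the 12 acyl-CoA synthetases listed, 7 had a row, 6 were tested and 0 passed, with a median of -0.006. Acsm3, an acyl-CoA synthetase of the family that activates short- and medium-chain acids, was listed at 5.70, 19.13 and 6.10 FPKM after vehicle and 8.77, 2.40 and 2.96 after melatonin, so that its groups overlapped and vehicle animal 2 stood out (log2 difference -0.95 ± 0.51, limma adjusted p = 0.972). The acetyl-CoA synthetase Acss2 was far more abundant, at 216 ± 5.76 and 199 ± 16.4 FPKM.

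Among partners and luminal exchangers, 14 of 14 genes had a row, 12 were tested and 0 passed, with a median of -0.026. The chloride-bicarbonate exchanger Slc26a3 stood at 1181 ± 152 and 1002 ± 57.4 FPKM and the carbonic anhydrase Car2 at 879 ± 152 and 673 ± 217. Of the lactate and pyruvate genes, 16 of 18 had a row, 14 were tested and 0 passed, with a median of -0.056. Of the regulators of lipid and ketone metabolism, 17 of 18 had a row, 16 were tested and 0 passed, with a median of 0.044. Foxa2, a transcription factor of gut and liver, was listed at 27.53, 27.94 and 24.73 FPKM after vehicle and 24.55, 20.92 and 16.75 after melatonin (log2 difference -0.37 ± 0.15, limma adjusted p = 0.972). Ppara, the nuclear receptor that drives fatty acid oxidation genes, stood at 3.88 ± 0.188 and 2.66 ± 1.23, and Ppard, its most abundant relative here, at 117 ± 1.01 and 128 ± 23.3.

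The animals ranked differently for different members of the group. Vehicle animal 3 was the highest of the 6 for 4 of the 8 genes, Slc16a1, Slc16a3, Acat1 and Bdh1, where it was the highest for 15% of all features. Vehicle animal 2 was the highest for Slc16a12 and Ffar2. Melatonin animal 6 was the lowest for 3, Slc16a1, Bdh1 and Ffar2, and the highest for Bsg. By Pearson's r of log2(FPKM + 1) over the 6 animals, the pattern most like that of Slc16a1 among 9533 other tested genes was that of Copg2 (r = 0.999, Spearman's rho 0.94), that most like Slc16a12 was Arl6ip6 (r = 0.984, rho 1.0), and that most like Ffar2 was Apbb3 (r = 0.991, rho 0.94). Each of the 8 genes had a partner at 0.978 or more, and with 6 animals from 2 groups such values describe these libraries only.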

How the data were processed

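RNA-seq of colonic epithelium from 6 rats, 3 per group, was analysed from 1 deposited table. The authors' values are FPKM per RefSeq transcript and animal, with 2 decimals, as the file headers show. Tools named, without roles, are RSEM, Bowtie2 and BWA 0.7.10-r789, and the build is rn6, per the submitters' processing notes. Per the labels' protocols, poly(A) RNA was selected and random-primed with no strand marking described, so antisense transcripts are not told apart. The authors' deposited log2 ratio is quoted where named; their deposited score and group means were not used, and the deposited transcript lengths served to estimate depth.

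Accessions were matched to RefSeq symbols (GRCr8), 12883 of 13647, and transcripts were summed per gene, giving 13104 features. Features with a mean of at least 1 FPKM were tested on log2(FPKM + 1) with limma 3.58.1 in R 4.3.3 (mean trend, two-sided, Benjamini-Hochberg over 10137, threshold 0.05). The procedure was also run on simulated data with independent normal noise and no shift between libraries. Such data cannot show how it handles a library like that of melatonin animal 6. Fold changes on the log2(FPKM + 1) scale understate those of low genes. FPKM was the planned second choice, counts the first. Each rat is 1 sample. Depth was estimated from transcripts under 700 bases: with 36 bases taken off each length, 80.7% to 91.2% of values up to 10 reads lay within 0.1 of a whole read. The 36 bases and the depths were chosen to make this share largest, over 68 to 92 values per library, so it is no check on them. Single values were compared by exact permutation. No column lacked a sample.

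The 8 genes and the 8 pathway and 13 marker lists were chosen with earlier results of these data known. Named genes are the 8, up to 4 others per list by smallest p, up to 3 by highest mean, and the closest gene by correlation, and some are not reported here; Ffar3, Olr59, Slc16a8, Emb, Nptn and marker genes were named after their values were seen. Alternatives were 2 pseudocounts, 2 filters, 2 scalings, no trend, unsummed transcripts and leaving out each animal.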

Additional observations from a re-analysis of the deposited data

How the results depend on the processing

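Over 14 alternatives, the adjusted p of each of the 8 genes stayed above 0.05 in limma, between 0.313 and 1, and 106 of 112 values kept their sign. The 6 that turned arose when 1 animal was left out: the log2 difference ranged from -0.087 to 0.185 for Slc5a8, from -0.028 to 0.059 for Bsg, from -0.11 to 0.021 for Bdh1 and from -0.08 to 0.06 for Acat1. Slc5a8 turned to -0.027 without vehicle animal 3 and -0.087 without melatonin animal 4, Bsg to -0.014 without vehicle animal 1 and -0.028 without melatonin animal 6, and Bdh1 and Acat1 to 0.021 and 0.06 without vehicle animal 3. Slc16a12 ranged from -0.99 to -0.78 and Ffar2 from -0.52 to -0.29 when an animal was left out, and Slc16a1 from -0.20 to -0.05. Over all features, the count called higher ranged from 0 to 4 when an animal was left out (3 without vehicle animal 1, 4 without melatonin animal 4) and the count called lower stayed at 0. Without a filter 1 feature was called lower, and without a trend 1 was; in both it was the microRNA precursor Mir3074, and none of these calls was among the 8 genes. The features called higher were Fam111a, Scgb1a1 and Tnfsf10 without vehicle animal 1, and Ifi27l2b, Ifit2, Mir126a and Oasl2 without melatonin animal 4. The cause was not tested. Another scaling moved the median of all features from -0.02 to at most 0.00. No paired analysis was possible because the labels number the animals 1 to 3 and 4 to 6 and pair none. Low genes rest on few reads: Slc16a12, at 1.06 to 3.98 FPKM, had an estimated 7.0 to 24.1 reads per library.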

Other observations

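Vehicle animal 2 was the highest of the 6 animals for 21 of the 74 other tested pathway genes (28.4%, against 19.8% of all features), among them Slc16a5, Slc16a7 and Acsm3, and for Slc16a12 and Ffar2 as well. Acsm3 at 19.13 FPKM and Slc16a7 at 11.53 FPKM in that animal were above every other animal by a wide margin. Melatonin animal 6 was the lowest for 24 of the 74 (32.4%, against 33.3% of all features), so its low values here are about as frequent as in the whole table.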
